A study of Homo sapiens with 2 samples.

Results

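The 47 protein-coding genes described here encode the proteins that mark, open and copy replication origins. They were chosen by symbol from a deposited table of 58735 genes: ORC1 to ORC6, MCM2 to MCM10, GINS1 to GINS4, the subunits of DNA polymerases alpha, delta and epsilon with primase, RFC1 to RFC5, RPA1 to RPA3, and CDC6, CDT1, GMNN, CDC45, PCNA, FEN1, LIG1 and TOPBP1. The samples were poly(A)-selected RNA-seq libraries of A2780, an established human ovarian cancer cell line, harvested in logarithmic growth with no drug or other agent named. One library, labelled shControl, came from cells of genotype WT that carried an empty vector, and the other, labelled shJAM3, from cells with a stable knockdown of JAM3, which encodes a junctional adhesion molecule. The design text speaks of siRNA where the titles carry the prefix sh, and the sources used here do not say whether each line was 1 clone or a pool. Each group held 1 library, so nothing below has a replicate check and no p-value is given.

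Before S phase, the origin recognition complex binds DNA and, with CDC6 and CDT1, loads the MCM2-7 ring, a step that geminin (GMNN) blocks by holding CDT1. In S phase, CDC45 and the GINS complex join MCM2-7 to form the active helicase, and TOPBP1 helps to recruit them. Polymerase alpha with primase lays down primers, polymerase epsilon copies the leading strand and polymerase delta the lagging strand. RFC loads the sliding clamp PCNA onto primed DNA, RPA coats the exposed single strand, and FEN1 and LIG1 finish Okazaki fragments. Many of these genes are transcribed at the G1/S border under E2F factors, and proliferating tumour lines express most of them.

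The libraries held 15570262 (shControl) and 16455079 (shJAM3) fragments assigned to genes, with 60 to 10577 fragments for each of the 47 genes in a library. JAM3 had 18 fragments (0.215 FPKM) in shControl and 14 (0.154 FPKM) in shJAM3, a ratio of 0.716 with a counting interval of 0.330 to 1.52. At this depth the knockdown could not be seen in the RNA, so shControl and shJAM3 are used below as labels of libraries. Of 11 epithelial and ovarian carcinoma markers, 5 reached 1 FPKM in each library. KRT8, KRT18, KRT7 and MSLN lay between 93.4 and 197.5 FPKM, whereas EPCAM and CDH1 were below 1 FPKM and WT1 had at most 1 fragment. No endothelial marker of 6 reached 1 FPKM, with summed levels of 0.756 FPKM in shControl and 0.512 in shJAM3. Of 8 leukocyte markers only CD14 did so, in shControl (2.28 FPKM), and PTPRC had no fragment in either library. Of 7 stromal markers COL1A1 and PDGFRB did, and COL1A2 had no fragment. The mitochondrial share was 2.58% in shControl and 3.58% in shJAM3.

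Most replication genes were moderately higher in the shJAM3 library. FPKM, fragments per kilobase of exon scaled to the library, are the deposited values, given below for shControl first. The log2 ratio of shJAM3 to shControl was taken after 1 FPKM was added to each value, which pulls the ratio of low genes towards 0. A gene with a mean of at least 1 FPKM counts as measured, which kept 46 of the 47 genes and left out MCM9. Of the 46, 34 (73.9%) were higher in shJAM3, against 49.4% of 10499 measured protein-coding genes. The median log2 ratio was 0.24, beside -0.01 for all measured protein-coding genes. By a size rule of 0.5 on this scale (1.41-fold), 10 genes (21.7%) were higher, against 8.35% of all measured genes, and 1 (2.17%) was lower, against 12.4%. By the rule of 1 (2-fold), no replication gene was higher (0.391% of all) and POLD4 alone was lower (1.41% of all). With 1 library per group, a difference between the lines cannot be told from one between the libraries, such as the GC trend below. Cell cycle phase and RNA per cell were not measured, so neither was tested.

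The 47 genes lie on 19 chromosomes. The genes past 0.5 were, from the highest, ORC5, GINS3, POLE2, ORC3, PCNA, POLD3, RPA1, RPA2, GMNN and POLA1, with log2 ratios from 0.81 down to 0.55. ORC1, at 0.40, was the nearest gene short of that size. The other 35 measured genes lay within 0.5 of 0 in either direction. Bracketed values below are 95% intervals of the plain FPKM ratio for counting error only, and copies made by PCR make them too narrow. They lay above 1 for 30 of the 46 genes (65.2%), against 34.5% of all measured genes, and below 1 for 8 (17.4%), against 36.8%. As a sum, the 47 genes made up 0.483% of all shControl fragments and 0.540% of all shJAM3 fragments. Their summed ratio was 1.09 (1.08 to 1.10) on the library sizes that the deposited FPKM imply. Those sizes differ from the fragment sums used for the 2 percents, so the ratio is not the quotient of the percents.

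**Figure D1:**
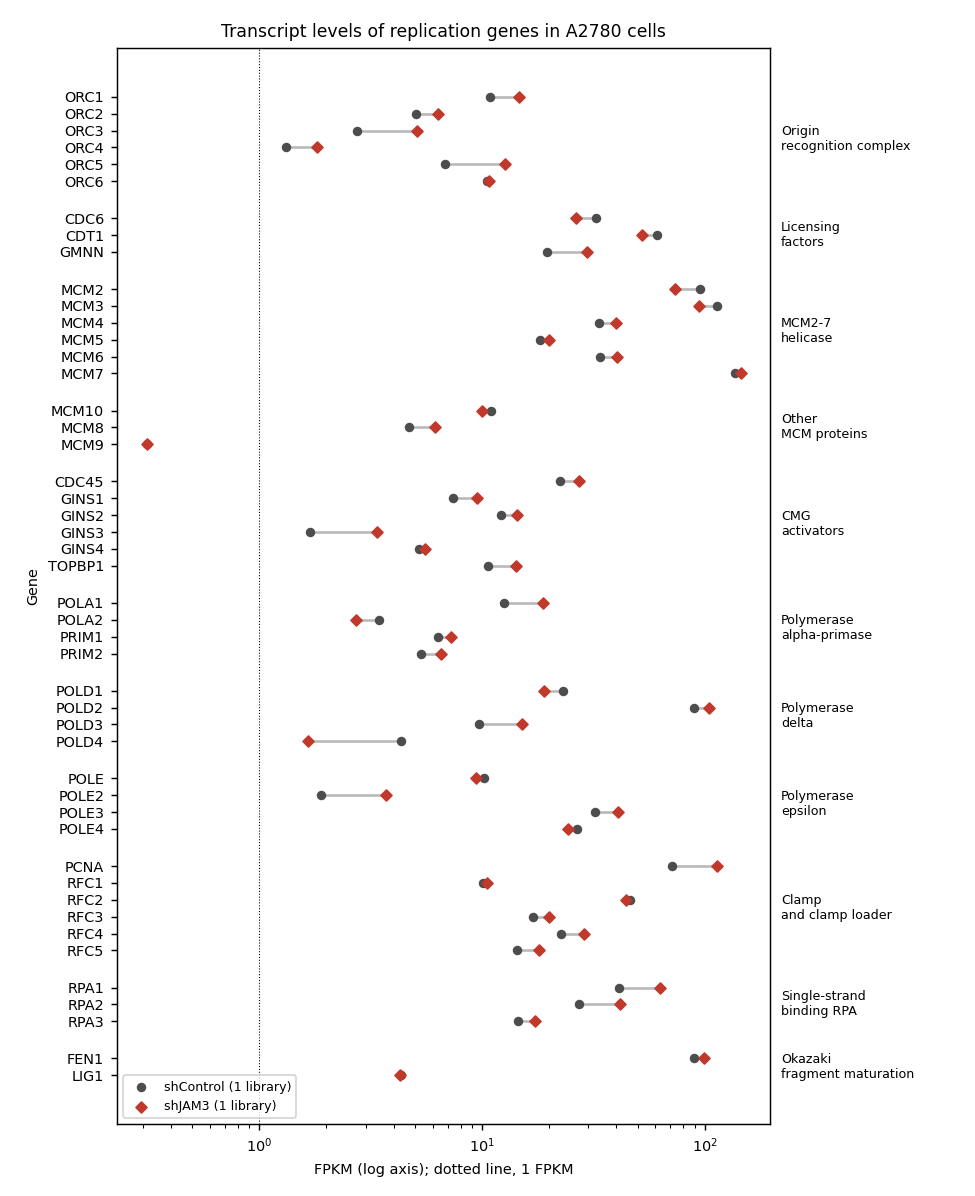
FPKM of the 47 replication genes (log axis) in the shControl library (grey circles) and the shJAM3 library (red diamonds), grouped by role, with a grey line joining the 2 values of a gene. Levels run from 0.312 FPKM for MCM9 to 145 FPKM for MCM7, and most red diamonds lie to the right of their grey circle, with POLD4 the clearest exception.

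The ratio followed the GC content of transcripts in the whole table, and the replication genes shared that trend. Across the 46 genes the log2 ratio and the GC content of the principal transcript had r = -0.62, and across 10494 measured protein-coding genes r = -0.51. These are correlations across genes within the same pair of libraries, and genes are not independent replicates. The replication genes had a median GC of 46.8%, beside 50.0% for all measured. Of the 30 replication genes below that overall median, 28 were higher in shJAM3, with a median log2 ratio of 0.32, where all genes of that GC range had a median of 0.16. Of the 16 at or above it, 6 were higher, with a median of -0.08, where all genes of that range had -0.19. All 10 genes past 0.5 were on the low-GC side. After each ratio was centred on the median of its GC bin, 33 of the 46 genes (71.7%) were above 0, against 49.9% of all measured genes, and the median was 0.16. The GC-centred count past 0.5 was 6 (13.0%), against 6.08% of all. Those 6 were ORC5, GINS3, PCNA, RPA1, POLE2 and RPA2, and POLD4 was the 1 gene past 0.5 on the lower side (8% of all). GC-centred values are given below where they change a direction or this call.

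**Figure D2:**
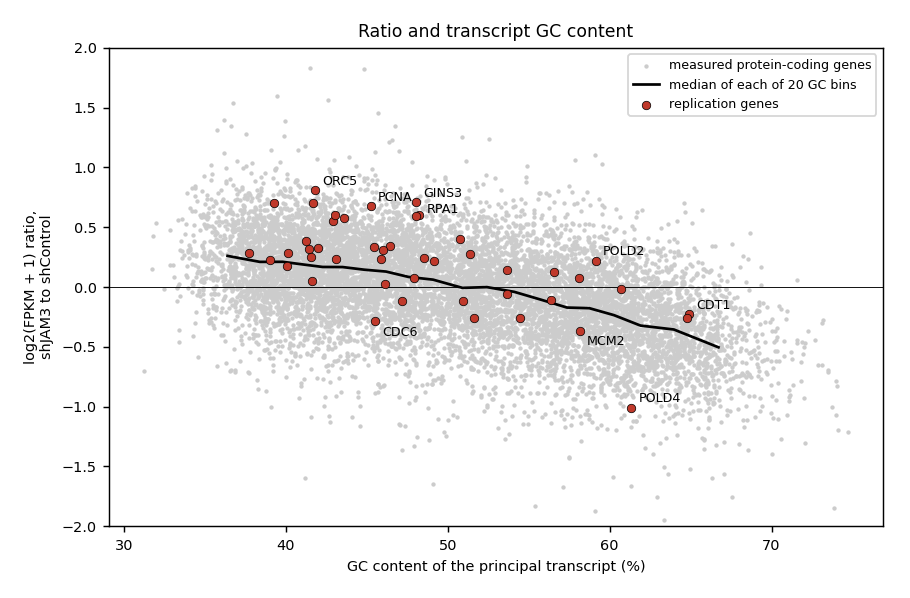
Log2(FPKM + 1) ratio of shJAM3 to shControl against the GC content (%) of the principal transcript, for measured protein-coding genes (grey; 7 of 10494 lie outside the plotted range) and the 46 measured replication genes (red). The black line joins the medians of 20 GC bins, and falls from left to right. Most replication genes lie above it, with ORC5 highest and POLD4 lowest.

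A match to the E2F consensus was common in the promoters of these genes. RefSeq promoter windows (250 bases before to 50 after a start, GRCh38.p14) were found for 41 of the 47 genes. None was found for MCM4, MCM5, POLD3, GINS4, RPA2 and RPA3. POLD3 and RPA2, which were past 0.5, are thus missing from the counts below. The letters TTTNGCGC were searched on both strands (GCGCNAAA on the other), and overlaps with other motifs were allowed. A match stood in the window of 17 of the 41 genes (41.5%), against 3.66% of 8385 measured protein-coding genes and 1.79% of all 35116 windows. The letters CCAAT, the NF-Y motif, were present for 25 of 41 (61.0%), against 43.3% of measured genes, and 12 genes held both. The letters CACGTG, an E-box, were present for 8 (19.5%, against 13.1%), and TTTGAA, a CHR element, for 1 (2.44%, against 12.8%). The genes with the E2F letters did not have a higher median than those without. The 17 had a median log2 ratio of 0.08, with 11 higher and 3 past 0.5, and the 23 measured genes without it had a median of 0.25, with 17 higher and 5 past 0.5. After GC centring the medians were 0.13 and 0.18. A match is a description of letters and was not tested for binding.

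The windows below are shown because they place a match to the same motif beside genes of opposite direction in these libraries. POLE2, GMNN and POLA1 were past 0.5 on the higher side, MCM6 and MCM7 were higher by less, and MCM2, MCM3 and CDC6 were lower. Each is 30 bases long, read 5′ to 3′ on the gene's strand from RefSeq (GRCh38.p14), with the match in capitals.
POLE2: tcttaacagggTTTAGCGCcacgcgggcca
GMNN: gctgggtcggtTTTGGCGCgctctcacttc
POLA1: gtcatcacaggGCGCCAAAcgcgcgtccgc
MCM6: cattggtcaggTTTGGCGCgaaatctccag
MCM7: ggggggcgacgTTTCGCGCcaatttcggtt
MCM2: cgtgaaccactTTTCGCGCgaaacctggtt
MCM3: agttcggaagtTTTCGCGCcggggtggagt
CDC6: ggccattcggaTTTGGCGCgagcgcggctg
The POLE2 window is chr14:49688277-49688306 (minus strand), that of GMNN chr6:24775322-24775351 (plus) and that of POLA1 chrX:24693770-24693799 (plus). MCM6 is at chr2:135876515-135876544 (minus), MCM7 at chr7:100101388-100101417 (minus) and MCM2 at chr3:127598402-127598431 (plus). MCM3 is at chr6:52284728-52284757 (minus) and CDC6 at chr17:40287875-40287904 (plus). MCM6 held 4 matches in its window, more than any other of these genes, and MCM2 and POLE2 held 2 each. In MCM6 and MCM2 a match on the other strand overlaps the one shown, in the bases that run on from the capitals.

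All 6 genes of the origin recognition complex were higher in shJAM3, with a median log2 ratio of 0.34, or 0.24 after GC centring. ORC5 (ENSG00000164815, chromosome 7, 104126341 to 104208047, minus strand, GRCh38) encodes an ATPase-family subunit. It measured 6.80 FPKM in shControl against 12.7 in shJAM3 (ratio 1.86, 1.65 to 2.11). ORC3 measured 2.75 against 5.10 FPKM (ratio 1.85, 1.53 to 2.26). These were the largest differences of the complex, and ORC3 was just short of 0.5 after GC centring (0.49). ORC1, the subunit that drives ATP-dependent DNA binding, measured 10.8 against 14.7 FPKM (ratio 1.35, 1.21 to 1.51). Its transcript has a GC content of 50.7%, and centring left its log2 ratio of 0.40 at 0.41. ORC4 had the lowest levels of the 6, 1.31 and 1.82 FPKM, and ORC2 a ratio of 1.26 (1.11 to 1.42). With centring the log2 ratio of ORC2 went from 0.28 to 0.07 and that of ORC4 from 0.29 to 0.08. ORC6, the smallest subunit, measured 10.5 against 10.7 FPKM (ratio 1.02, 0.918 to 1.13). A difference in ORC6 was thus not detectable at this depth, and its log2 ratio of 0.02 went to -0.10 with GC centring.

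Of the licensing factors, CDC6 and CDT1 were lower and geminin was higher, but the direction of CDT1 was not kept with GC centring. CDC6, the ATPase that joins ORC at origins, measured 32.3 FPKM in shControl against 26.3 in shJAM3 (ratio 0.815, 0.771 to 0.861). Its log2 ratio of -0.29 became -0.41 with GC centring, so it lay further from genes of like GC than from 0. CDT1, which brings MCM2-7 to the origin, measured 60.9 against 52.0 FPKM (ratio 0.853, 0.811 to 0.897). CDT1 has the highest GC content of the 47 genes, 64.9%, and its log2 ratio went from -0.23 to 0.13 with centring, a change of sign. Geminin (GMNN), the inhibitor of CDT1, measured 19.5 against 29.6 FPKM (ratio 1.52, 1.39 to 1.67). Its log2 ratio was 0.58, or 0.41 after centring, short of the size rule.

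The MCM2-7 subunits did not share a direction, although they form a ring with 1 copy of each. MCM2 measured 94.7 FPKM in shControl against 73.2 in shJAM3 (ratio 0.773, 0.747 to 0.800), the lowest of the 6. MCM3 measured 113 against 94.4 FPKM (ratio 0.833, 0.804 to 0.864). MCM4 measured 33.4 against 39.8 FPKM (ratio 1.19, 1.14 to 1.24). MCM6 stood at 33.9 and 40.2 FPKM (ratio 1.19, 1.12 to 1.25), and MCM5 had a ratio of 1.10 (1.03 to 1.16). MCM7, the most abundant of the 47 genes, measured 137 against 145 FPKM (ratio 1.06, 1.03 to 1.09). The intervals of MCM2 and MCM3 lay below 1 and those of the other 4 above 1, and no subunit reached the size rule. The split was kept with GC centring, at -0.19 for MCM2, -0.25 for MCM3 and 0.07 to 0.26 for the others. Other annotated genes share 23.6% of the exon bases of MCM2, all of them on the opposite strand, and the largest of these, AC023593.1, had 10 fragments in each library.

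The 6 subunits also differed in level. Per annotated exon length, MCM7 stood 7.49-fold above MCM5 in shControl and 7.22-fold in shJAM3, with the same order of the 6 in both libraries. MCM5 has 7338 annotated exon bases but a principal transcript of 3534, which lowers its FPKM. Per length of the principal transcript, a measure added after the data were seen, the spread was 5.43-fold in shControl, with MCM6 lowest and MCM7, MCM3 and MCM2 highest. So MCM2 and MCM3, the subunits that were lower in shJAM3, were among the 3 most abundant by either length. Of the other MCM proteins, MCM10, which acts at helicase activation, measured 10.9 against 10.0 FPKM (ratio 0.916, 0.835 to 1.01), an interval that included 1. MCM8, part of a helicase of recombination repair, measured 4.69 against 6.13 FPKM (ratio 1.31, 1.17 to 1.46). Its partner MCM9 was barely expressed, at 0.313 and 0.312 FPKM from 60 and 65 fragments.

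All 6 genes that act in turning the MCM ring into the CDC45-MCM-GINS helicase were higher in shJAM3. Their median log2 ratio was 0.30, or 0.18 after GC centring. GINS3 (ENSG00000181938, chromosome 16, 58295080 to 58406144, plus strand, GRCh38) measured 1.68 FPKM in shControl against 3.38 in shJAM3, from 132 and 288 fragments (ratio 2.01, 1.63 to 2.49). It was the lowest of the GINS subunits in both libraries. An antisense gene with no fragment in either library covers 10.9% of its exon bases. GINS1 measured 7.38 against 9.46 FPKM (ratio 1.28, 1.14 to 1.45), and GINS2 at 12.1 and 14.3 (ratio 1.18, 1.06 to 1.31). GINS4 measured 5.23 against 5.55 FPKM (ratio 1.06, 0.932 to 1.21), and its log2 ratio of 0.07 was -0.01 with GC centring. GINS is a tetramer with 1 copy of each, and its transcripts spanned ratios from 1.06 to 2.01. CDC45 measured 22.3 against 27.3 FPKM (ratio 1.22, 1.13 to 1.33), and GC centring left its log2 ratio at 0.29. TOPBP1, a scaffold of origin firing and of the ATR checkpoint, measured 10.6 against 14.2 FPKM (ratio 1.34, 1.24 to 1.44).

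**Figure D3:**
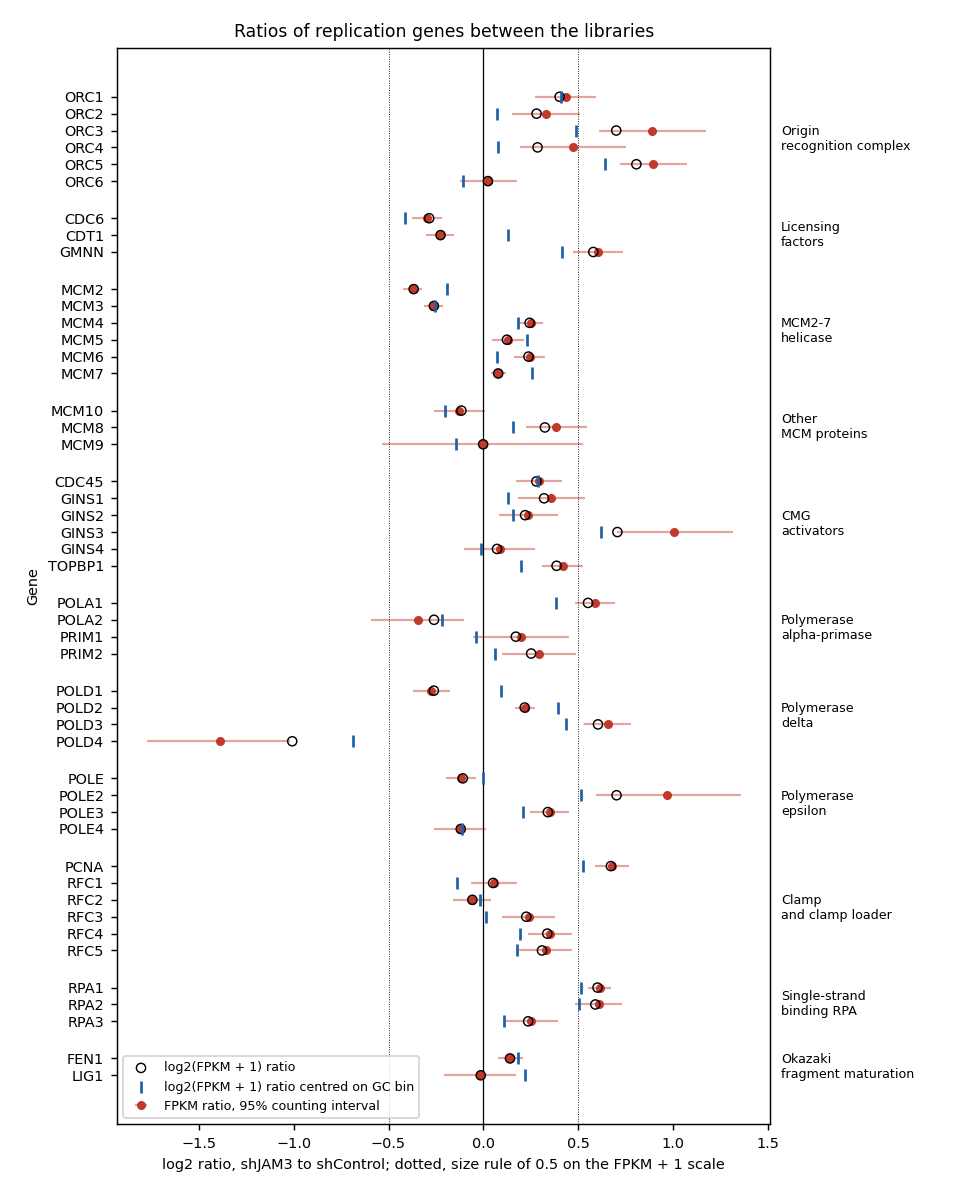
Log2 ratio of shJAM3 to shControl for the 47 replication genes by role: the plain FPKM ratio with its 95% counting interval (red), the log2(FPKM + 1) ratio (open circles) and the same after GC centring (blue ticks). Dotted lines mark 0.5 in either direction on the FPKM + 1 scale. The 6 ORC genes, the 6 helicase activators and the 3 RPA genes lie to the right of 0 before centring, and POLD4 lies furthest left.

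The polymerase complexes were each divided between higher and lower subunits. Within polymerase alpha-primase, the catalytic subunit POLA1 measured 12.5 FPKM in shControl against 18.8 in shJAM3 (ratio 1.50, 1.40 to 1.62). Its log2 ratio was 0.55, or 0.39 after GC centring. POLA2, the accessory B subunit, lay on the lower side at 3.44 and 2.71 FPKM (ratio 0.787, 0.664 to 0.932), and it shares 35.1% of its exon bases with AP000944.2, a gene on the same strand with 4 and 12 fragments. The primase subunits PRIM1 and PRIM2 had ratios of 1.15 (0.963 to 1.37) and 1.23 (1.07 to 1.41). The log2 ratio of PRIM1, 0.17, was -0.04 with centring. The level of POLA1 over that of POLA2 was 3.63-fold in shControl and 6.94-fold in shJAM3 per annotated exon length.

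Polymerase delta held the gene that was furthest below 0. POLD4 (ENSG00000175482, chromosome 11, 67350777 to 67356972, minus strand, GRCh38) encodes the smallest subunit. It measured 4.33 FPKM in shControl against 1.65 in shJAM3, from 203 and 84 fragments. The ratio was 0.381 (0.292 to 0.494), the log2 ratio -1.01, and the GC-centred value -0.69. With fragments scaled to library totals the log2 ratio was -0.98, short of the rule of 1. POLD4 is not essential to the catalytic core, and the protein is known to be degraded in S phase and after DNA damage. A second annotated protein-coding gene on the same strand, AP003419.1, covers 21.3% of its exon bases and is listed at 0 in both libraries. POLD3, a subunit that binds PCNA, was higher, at 9.63 and 15.2 FPKM (ratio 1.58, 1.44 to 1.72). Its log2 ratio of 0.61 was 0.44 after centring, short of the size rule. POLD2 measured 89.1 against 104 FPKM (ratio 1.17, 1.12 to 1.21). The catalytic subunit POLD1 measured 23.0 against 19.0 FPKM (ratio 0.827, 0.772 to 0.886). With a GC content of 64.8% its log2 ratio went from -0.26 to 0.09 on centring, so POLD1 changed sign where POLD4 did not.

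In polymerase epsilon, POLE2, the second subunit of the complex, measured 1.89 FPKM in shControl against 3.71 in shJAM3 (ratio 1.96, 1.51 to 2.56) from 86 and 183 fragments. The catalytic subunit POLE measured 10.2 against 9.41 FPKM (ratio 0.921, 0.872 to 0.972), and GC centring brought its log2 ratio of -0.11 close to 0. POLE3 and POLE4 form a histone-fold pair that holds the polymerase on DNA. POLE3 measured 32.0 against 40.8 FPKM (ratio 1.27, 1.19 to 1.37), and POLE4 measured 26.5 and 24.4 (ratio 0.918, 0.835 to 1.01). POLE2 was thus the lowest subunit by level in both libraries and the only one of the 4 past the size rule.

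PCNA stood apart from its loader. PCNA measured 71.0 FPKM in shControl against 114 in shJAM3 (ratio 1.60, 1.51 to 1.71), with a log2 ratio of 0.67 and 0.53 after GC centring. The RFC subunits differed less. RFC4 measured 22.5 against 28.7 FPKM (ratio 1.28, 1.18 to 1.38). RFC5 had a ratio of 1.26 (1.14 to 1.39) and RFC3 of 1.18 (1.07 to 1.30). The log2 ratio of RFC3, 0.23, was 0.02 after centring. RFC1, the large subunit, measured 10.1 against 10.5 FPKM (ratio 1.04, 0.956 to 1.13), and its log2 ratio of 0.05 was -0.14 with centring. RFC2, the most abundant RFC subunit, measured 46.0 against 44.2 FPKM (ratio 0.960, 0.895 to 1.03). The intervals of RFC1 and RFC2 included 1.

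The 3 genes of the single-strand binding protein RPA had the highest median of any role, 0.59, or 0.51 after GC centring. RPA1, the large DNA-binding subunit, measured 41.2 FPKM in shControl against 63.1 in shJAM3 (ratio 1.53, 1.47 to 1.60). RPA2, the subunit that checkpoint kinases phosphorylate, measured 27.2 against 41.5 FPKM (ratio 1.53, 1.40 to 1.66). RPA1 and RPA2 thus had nearly the same ratio. RPA3, the smallest subunit, measured 14.5 against 17.3 FPKM (ratio 1.19, 1.08 to 1.31). Its interval did not overlap those of RPA1 and RPA2. Of the enzymes that finish Okazaki fragments, FEN1 measured 89.3 against 98.6 FPKM (ratio 1.10, 1.05 to 1.16). LIG1, the replicative ligase, measured 4.32 against 4.27 FPKM (ratio 0.989, 0.866 to 1.13), and its log2 ratio of -0.01 was 0.22 after centring.

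Other genes of the pathway were set beside these, from 10 lists chosen by function. Of all measured genes, 8.35% were past 0.5 on the higher side and 12.4% on the lower side. Most genes of each list were higher in shJAM3, apart from the E2F and RB factors and the histones. The medians of the mostly higher lists ran from 0.06 to 0.34, and the lagging-strand list had no gene past 0.5. Of 16 measured fork protection and checkpoint genes 13 were higher, 3 past 0.5 and none lower by that size, with a median log2 ratio of 0.33. RAD17, which loads the checkpoint clamp, measured 1.74 FPKM in shControl against 4.11 in shJAM3 (ratio 2.36, 1.89 to 2.97). The kinase gene ATR had a ratio of 1.76 (1.59 to 1.95) and TIPIN, of the fork protection complex, of 1.68 (1.35 to 2.10). After GC centring ATR (0.44) and TIPIN (0.41) were short of 0.5 and RAD17 was not (0.69), while TRAIP, a ubiquitin ligase of the replisome, went from 0.50, just short of the rule, to 0.54. Of 13 deoxynucleotide supply genes 11 were higher and 3 past 0.5, with a median of 0.34. RRM2, the small subunit of ribonucleotide reductase, measured 2.84 against 10.4 FPKM (ratio 3.66, 3.16 to 4.24), and alone in these lists was higher by at least 1 (log2 ratio 1.57). RRM1, its large subunit, had a ratio of 1.46 (1.40 to 1.52), and its log2 ratio of 0.53 was 0.37 after centring. Of 19 regulators of licensing and firing 12 were higher and 5 past 0.5, with a median of 0.06. They included CCNE1, the cyclin that drives S-phase entry (ratio 1.98, or 0.91 on the log2 scale with and without GC centring), WDHD1, which links polymerase alpha to the helicase (ratio 1.76), and DTL and CUL4A, parts of the ubiquitin ligase that removes CDT1 (1.56 and 1.51). After centring 2 of the 5 were past 0.5, CCNE1 and CUL4A (0.53), while WDHD1 (0.45) and DTL (0.44) were short of it.

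The alternative clamp loader and cohesion genes were 8 higher of 12, 3 past 0.5, with a median of 0.18 that was 0.00 after GC centring. DSCC1, of the alternative clamp loader, had a ratio of 1.94 (1.64 to 2.29) and ESCO2, a cohesin acetyltransferase, of 2.72 (2.23 to 3.33), while CHTF18 was lower at 0.699 (0.657 to 0.742). CHTF18 has a GC content of 66.9%, and its log2 ratio of -0.50 was 0.01 after centring, so its direction was not kept. The count past 0.5 in this list was 2 after centring, DSCC1 and ESCO2. Of 14 chromatin assembly genes 9 were higher and 2 past 0.5 (1 after centring), with a median of 0.17, and SUPT16H of the FACT chaperone had a ratio of 1.65 (1.56 to 1.74). Translesion and other DNA polymerase genes were higher in 10 of 13 cases, with a median of 0.27. RAD18, a ubiquitin ligase that acts on PCNA, was past 0.5 at 0.58 but at 0.39 after centring. Lagging-strand and topoisomerase genes had 7 higher of 10 and a median of 0.06, with none past 0.5 in either direction. Mitotic genes were higher in 22 of 27 cases. Their median was 0.34, as high as the checkpoint and deoxynucleotide lists and above the 0.24 of the replication genes. After centring the medians were 0.19 (mitotic), 0.20 (checkpoint), 0.32 (deoxynucleotide) and 0.16 (replication genes). Of the mitotic genes, 6 were past 0.5. After centring 2 were (7.41%, against 6.08% of all measured genes), MKI67 and PTTG1. MKI67, the proliferation marker, measured 13.3 against 23.2 FPKM (ratio 1.75, 1.67 to 1.83), and PTTG1, the securin gene, had a ratio of 1.61 (1.47 to 1.75). Differences between lists were not tested, since each group held 1 library.

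The E2F and RB factors did not share the direction of the replication genes. Of 18 measured, 9 were higher and 9 lower, with a median of 0.02. E2F1 measured 132 FPKM in shControl against 84.7 in shJAM3 (ratio 0.641, 0.614 to 0.670), and its log2 ratio of -0.63 was -0.31 after GC centring. It was the only gene of this list past 0.5, and after centring none was. E2F8, a repressor of the family, was higher at 1.48 (1.17 to 1.88), as was RBL2 at 1.37 (1.26 to 1.50). Replication-dependent histone genes, whose products package the new DNA, were lower in 11 of 15 cases, 9 of them past 0.5 and none past it on the higher side. Their median was -0.58, or -0.64 after centring. HIST1H3B measured 35.2 against 8.90 FPKM (ratio 0.253, 0.187 to 0.337), and HIST1H3H measured 19.0 and 5.38 (ratio 0.283, 0.227 to 0.351). Most of their mRNAs carry no poly(A) tail so capture on poly(T) beads takes up only part of them.

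**Figure D4:**
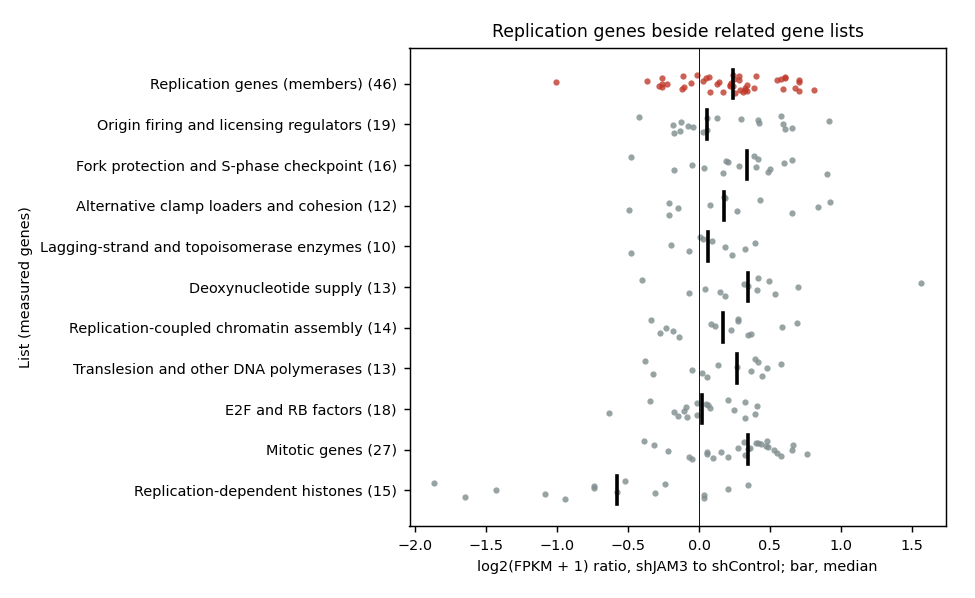
Log2(FPKM + 1) ratios of the 46 measured replication genes (red) and of the measured genes of 10 related lists (grey), 1 point per gene, with a black bar at each median and the number of genes in brackets. The replication genes centre on 0.24 and the histone genes on -0.58, while the E2F and RB factors centre on 0.02.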

How the data were processed

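RNA was measured in 2 libraries, 1 per group, grouped by their titles. The authors deposited FPKM per gene, and the submitters' processing notes list HISAT2 2.0.5 and featureCounts 1.5.0-p3 among their tools, without roles. No source used here names the genome build. All 58735 identifiers, coordinates, symbols and exon lengths equalled GENCODE release 29 (GRCh38). The labels' protocols mention neither strand marking nor molecular identifiers.

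In each library, FPKM times length gave multiples of a fixed step (tolerance 0.001 fragments), from which fragment numbers were taken; the step implies library sizes other than their sums, so scaling to the sums was an alternative. Of rows sharing a symbol the one with the highest mean was kept (1566 left out). Differences were log2 ratios after adding 1 FPKM, where the mean reached 1 FPKM. Intervals of FPKM ratios are exact conditional binomial (95%). GC content is that of the APPRIS principal transcript (then the longest), and centring used 20 bins. No test was possible with 1 library per group, so size rules of 0.5 and 1 (log2) were used. The rule of 0.5 and the intervals were run on simulated counts with counting error only, and the rule of 1 was not. The simulated counts held no GC trend and no spread between libraries, so they do not show how the rule behaves on these libraries. Python 3.11.15, scipy 1.17.1 and pandas 2.3.3 were used.

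All genes past 0.5, and in each role those with the highest and lowest ratio or level, were named, and up to 4 of each other list with the largest difference, of which 1 is not reported here. The members and lists were chosen with earlier results of these data known. Alternatives were another pseudocount, 2 other scalings, other filters, GC centring and the counting interval as an added condition.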

Additional observations from a re-analysis of the deposited data

How the results depend on the processing

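The median log2 ratio of the replication genes was 0.24 and ranged from 0.16 (GC centring) to 0.27 (fragments scaled to library totals) over the 6 alternatives. The median of all measured genes stayed within 0.03 of 0 in each. The count of genes higher by at least 0.5 was 10, and it was 6 with GC centring and 7 at a mean of at least 5 FPKM. It was 10 with a pseudocount of 0.1 FPKM, with either scaling, with no filter and with the counting interval added. The 1 gene lower by at least 0.5, POLD4, was left out at a mean of at least 5 FPKM, which gave a count of 0. The count lower by at least 1 was 1, and was 0 with library totals, with GC centring and at 5 FPKM. GC centring changed the sign of 7 of 47 genes and moved 23 beyond counting error, and no other alternative moved any that far. No paired analysis was possible because each group held 1 library. For the same reason no library could be left out. Of the 47 counting intervals, 9 included 1. These were not only of low genes: RFC2 (46.0 and 44.2 FPKM) and POLE4 (26.5 and 24.4 FPKM) were among them, with ratios near 1.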

Other observations

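Some replication genes start close to the start of a gene that reads away from them. For 18 of the 47, a protein-coding gene on the opposite strand starts within 1000 bases of their own start (GENCODE 29). The share over all protein-coding genes was not counted. Of the 18 neighbours, 14 had a mean of at least 1 FPKM, and 10 of the 14 had a log2 ratio of the same sign as the replication gene. The share of same signs over all such pairs of genes was not counted either. Some of these signs rest on ratios close to 0, such as that of LIG1 (-0.01), counted as the same. Another is that of PRKDC (-0.001), the neighbour of MCM4, counted as opposite. Distances are between starts. The start of ORC1 (0.40) is 105 bases from that of PRPF38A, a splicing factor gene, which measured 7.27 against 13.0 FPKM (log2 ratio 0.76). That of FEN1 (0.14) is 165 bases from that of TMEM258, at 21.7 and 33.7 FPKM (0.61). That of MCM2 (-0.37) is 44 bases from that of TPRA1, at 15.3 and 12.2 FPKM (-0.31). FEN1 and MCM2 overlap these neighbours at their starts. RPA1 (0.60) and SMYD4 (-0.27) went opposite ways. LIG1 (-0.01) was level beside ZSWIM9, which was at 10.1 and 4.67 FPKM (-0.97). MCM4 starts 2 bases from PRKDC, the DNA-dependent protein kinase gene, and had a log2 ratio of 0.24 where PRKDC measured 61.4 FPKM in both libraries. FEN1, MCM2, MCM7, ORC4, POLE3, PRIM1 and RPA1 share some exon bases with their neighbours, and reads there cannot be assigned without strand information.

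Of the 47 genes, 21 share exon bases with another annotated gene, 5 of them over 20% of their bases (POLA2, MCM2, GINS4, PRIM1 and POLD4). The share over all annotated genes was not counted. The table lists 10 pseudogenes and 1 antisense gene named after members, such as PCNAP1 and RPA2P1, and all 11 are listed at 0 in both libraries.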
